A study of Mus musculus with 3 samples.

Results

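The genes described here are the mouse solute carriers that move bicarbonate, chloride, sulfate, sodium, potassium, calcium, protons and phosphate across membranes. They were taken as every non-control probe whose gene name on the array begins with Slc4a, Slc8a, Slc9a, Slc12a, Slc24a, Slc26a or Slc34a and a digit, which gave 80 of 41174 probes and 51 of 27675 gene names. Of the 51 genes, 48 encode transporters and 3 carry a transporter's symbol without being one, namely Slc9a3r1 and Slc9a3r2, which encode the scaffold proteins NHERF1 and NHERF2, and Slc4a1ap, which encodes the adaptor protein kanadaptin. The tissue was the utero-tubular junction (UTJ), the narrow segment between uterus and oviduct, of adult CD-1 (outbred) females in estrus. Each of 3 Agilent single-colour arrays, which report the brightness of Cy3-labelled cRNA on oligonucleotide probes, held 1 pool of 10 females. The first pool had mated with normal males, the second with vasectomized males, whose ejaculate brings seminal fluid without sperm, and the third had not mated. How long after mating the tissue was taken is not stated in the labels. With 1 array per group there was no replicate, so no p-value, SD or standard error is given, and every ratio compares 2 arrays and not the conditions in general.

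Slc4 proteins carry bicarbonate, either in exchange for chloride or together with sodium, and set the pH inside cells and in the fluids that epithelia make. Slc26 proteins exchange or conduct chloride, bicarbonate, sulfate and other anions, and in many secretory ducts they work beside the chloride channel CFTR. Slc9 proteins exchange sodium for protons, Slc12 proteins couple chloride to sodium or potassium and so drive fluid movement and cell volume, Slc8 and Slc24 proteins extrude calcium in exchange for sodium, and Slc34 proteins take up phosphate with sodium. In the female tract such carriers help to make the luminal fluid, whose bicarbonate is needed for sperm capacitation.

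The 3 arrays differed in brightness, so signals were compared after scaling. The 75th percentile of the processed signal was 709 in normal mated, 295 in vasectomized mated and 876 in not mated. The share of spots well above background was 70.7% in normal mated, 65.9% in vasectomized mated and 68% in not mated. Levels are given below as a percent of the array's own 75th percentile, and ratios on the log2 scale after the same scaling. A gene stands for its brightest probe, and past 2-fold means a log2 ratio of 1 or more in size. A probe not well above background on 1 array of a pair gives only a bound, written "at least". Probes of 1 gene disagreed most where the vasectomized-mated array took part: among all genes with several probes measured on both arrays, 51.9% had probes more than 2-fold apart in vasectomized mated against not mated, 50% in normal mated against vasectomized mated, and 11.9% in normal mated against not mated. Among the carriers the same held for 3 of 8 genes, 4 of 9 genes and 1 of 9 genes. Markers of both ends of the junction were well above background on every array, among them Ovgp1, the oviduct glycoprotein, and the uterine genes Hoxa10 and Hoxa11. Some uterine and some oviduct markers differed widely between arrays, in both directions. Hoxa10 was 7.39-fold lower and Hoxa11 11.5-fold lower in normal mated than in not mated, with log2 ratios of 0.06 and -0.74 in vasectomized mated. Against not mated, normal mated was past 2-fold upward for 3 and downward for 4 of 7 uterine epithelium markers, and vasectomized mated for 2 and 3. Prss28, a uterine gland protease, was 614-fold lower in normal mated and not well above background in vasectomized mated. Sprr2f, of the same list, was 43.8-fold higher in normal mated and 53.5-fold higher in vasectomized mated. Of 5 oviduct secretory markers, 1 was past 2-fold upward and 1 downward in normal mated against not mated. In vasectomized mated 0 were upward and 2 downward, among them Pax8, 13.6-fold lower. The part of these differences in the values below was not tested.

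Slc26a1, Slc26a4, Slc26a9 and Slc34a2 were at least 2-fold higher on both mated arrays than on the not-mated array. The RefSeq promoters of these 4 genes are shown because they are the members that went the same way in both matings, 300 bases each on build GRCm38.p6, written 5′ to 3′ on the gene's strand, with the bases that match a searched motif in capitals. Slc26a1 has 2 annotated starts, at chr5:108674747-108675046 and chr5:108675316-108675615 on the minus strand. Slc26a4 is at chr12:31559935-31560234 on the minus strand, Slc26a9 at chr1:131743772-131744071 on the plus strand and Slc34a2 at chr5:53049103-53049402 on the plus strand.
Slc26a1, start 1: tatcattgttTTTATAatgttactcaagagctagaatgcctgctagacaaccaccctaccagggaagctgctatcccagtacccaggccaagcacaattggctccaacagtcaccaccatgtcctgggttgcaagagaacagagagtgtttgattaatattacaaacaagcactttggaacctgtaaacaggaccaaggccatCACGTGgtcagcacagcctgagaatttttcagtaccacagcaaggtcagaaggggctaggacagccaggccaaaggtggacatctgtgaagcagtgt
Slc26a1, start 2: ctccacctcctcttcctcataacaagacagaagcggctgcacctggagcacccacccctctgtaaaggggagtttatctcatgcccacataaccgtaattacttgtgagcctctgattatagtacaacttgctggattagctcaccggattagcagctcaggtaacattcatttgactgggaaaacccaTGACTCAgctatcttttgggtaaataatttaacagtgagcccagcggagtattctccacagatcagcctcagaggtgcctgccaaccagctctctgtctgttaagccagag
Slc26a4: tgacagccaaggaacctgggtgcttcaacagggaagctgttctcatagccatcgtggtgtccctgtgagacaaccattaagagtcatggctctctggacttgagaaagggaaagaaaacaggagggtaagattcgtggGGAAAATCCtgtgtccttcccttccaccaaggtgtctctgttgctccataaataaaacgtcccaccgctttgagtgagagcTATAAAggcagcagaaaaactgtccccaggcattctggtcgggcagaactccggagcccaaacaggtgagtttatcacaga
Slc26a9: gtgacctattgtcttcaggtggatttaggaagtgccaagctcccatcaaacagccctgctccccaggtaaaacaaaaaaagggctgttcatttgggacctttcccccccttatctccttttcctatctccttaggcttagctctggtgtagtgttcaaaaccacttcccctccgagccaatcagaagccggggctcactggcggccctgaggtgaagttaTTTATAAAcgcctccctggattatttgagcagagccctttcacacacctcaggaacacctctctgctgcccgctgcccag
Slc34a2: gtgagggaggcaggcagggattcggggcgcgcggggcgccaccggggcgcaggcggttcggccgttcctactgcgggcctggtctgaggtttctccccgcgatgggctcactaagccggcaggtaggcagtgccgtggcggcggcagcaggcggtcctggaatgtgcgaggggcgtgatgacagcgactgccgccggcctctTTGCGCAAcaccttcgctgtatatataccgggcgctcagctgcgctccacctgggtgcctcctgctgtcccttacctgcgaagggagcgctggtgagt

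The motifs searched on both strands were AP-1 (TGANTCA), STAT (TTCNNNGAA), NF-kB (GGANNTTCC), C/EBP (TTGCNNAA), the hypoxia response core (ACGTG) and the TATA box (TATAAA). The Slc26a4 promoter held an NF-kB match beginning at position -112 from the gene start and a TATA match at position -31. Slc26a9 held TATA matches at positions -30 and -28 that overlap on opposite strands. The first Slc26a1 start held a TATA match at position -240 and a pair of hypoxia response matches at positions -47 and -46, which are the same palindrome read on the opposite strands, and the second start held an AP-1 match at position -61. Slc34a2 held a C/EBP match at position -48. No motif was shared by all 4 genes. Over the 50 promoters found for 39 of the 51 genes, 6 (12%) held AP-1 against 7.81% of all 32851 promoters, 1 (2%) held STAT against 8.3%, 2 (4%) held NF-kB against 4.26%, 4 (8%) held C/EBP against 10.8%, 7 (14%) held the hypoxia response core against 19.6%, and 9 (18%) held a TATA match against 13.6%. A match describes letters in the window and not the binding of a factor. In base composition the Slc34a2 promoter had 68.7% G and C, the Slc26a4 promoter 50% and the Slc26a9 promoter 52%, where the median of all promoters was 52.7%.

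The share of carriers past 2-fold was below the share of all genes in 4 of 6 counts and above it in the other 2. In normal mated against not mated, 40 genes could be compared; 6 (15%) were at least 2-fold higher, where 9.82% of all 19308 genes compared were, and 4 (10%) were at least 2-fold lower, where 13.2% were. The median log2 ratio of the carriers was -0.14, and that of all genes was -0.05. In vasectomized mated against not mated, 8 of 40 (20%) were higher, where 25.8% of all 19314 genes were, and 5 (12.5%) were lower, where 16.5% were. In normal mated against vasectomized mated, 7 of 40 (17.5%) were higher, where 14.7% of all 18992 genes were, and 7 (17.5%) were lower, where 28% were. The median was -0.01 in vasectomized mated against not mated, with 0.18 for all genes, and -0.09 in normal mated against vasectomized mated, with -0.27 for all genes. Under other scalings the share of higher genes among carriers past 2-fold, 60% in normal mated against not mated, was 75% with normexp background correction and 72.7% with cyclic loess. In vasectomized mated against not mated it was 61.5%, with 75% under normexp and 53.3% under both quantile and cyclic loess scaling. Of all genes past 2-fold after 75th-percentile scaling, 1897 were higher and 2543 lower in normal mated against not mated. In vasectomized mated against not mated 4991 were higher and 3194 lower. Both mated arrays were set against the same not-mated array, so those 2 comparisons are not independent.

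**Figure D1:**
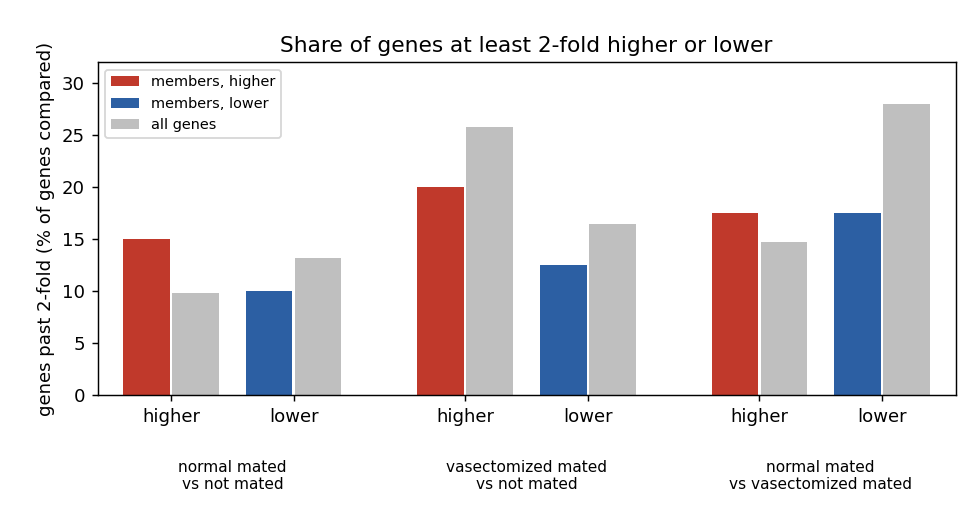
Bars give the percent of genes compared that were at least 2-fold higher or at least 2-fold lower in each of the 3 comparisons, coloured for the carriers and grey for all genes. The carriers' bars lie below the grey bars in 4 of the 6 pairs and above them for higher genes in normal mated against not mated (15% and 9.82%) and in normal mated against vasectomized mated (17.5% and 14.7%).

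By signal, 36 of the 51 genes were well above background on all 3 arrays, 7 on 1 or 2 arrays and 8 on none. In all, 20 genes were past 2-fold in at least 1 comparison, a count that was not made for all genes, whose shares per comparison are given above. A further 23 were measured on at least 1 array without passing 2-fold, 2 of them (Slc4a10, a sodium-dependent bicarbonate carrier of neurons, and Slc9a10, the sodium/proton exchanger of sperm, now named Slc9c1) on 1 array only and with no ratio. The 8 genes without signal well above background on any array were Slc12a1, Slc24a1, Slc24a2, Slc26a5, Slc26a8, Slc34a1, Slc9a3 and Slc9a4. They include carriers known best from other organs, such as Slc12a1 and Slc34a1 of the kidney tubule, Slc9a3 of the kidney and gut, Slc26a5 (prestin, the motor protein of outer hair cells) and Slc26a8 of the testis. One probe that the array lists under another name and that RefSeq assigns to Slc24a2, a sodium/calcium-potassium exchanger of neurons, was well above background on all 3 arrays, with log2 ratios of 0.47 in normal mated and 1.45 in vasectomized mated, each against not mated.

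**Figure D2:**
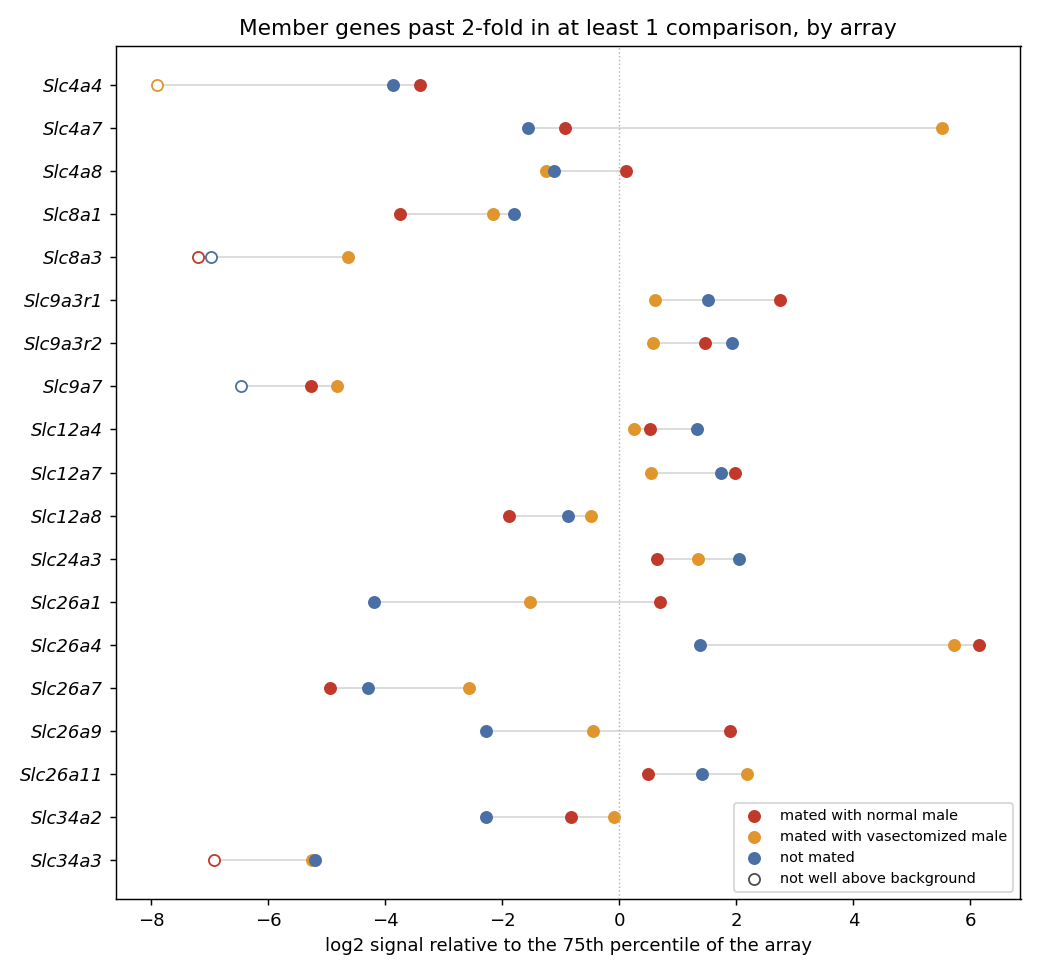
Each row is 1 of 19 carriers past 2-fold in at least 1 comparison, and each point is 1 array, placed by the log2 signal of the gene's brightest probe relative to the 75th percentile of that array, with open points for signals not well above background. The 2 mated arrays lie far right of the not-mated array for Slc26a4, and for Slc4a7 the vasectomized-mated array lies alone at the right.

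The Slc26 family held the most genes that were higher after mating. Slc26a4, or pendrin, which exchanges chloride for bicarbonate or iodide in the thyroid, inner ear, kidney and airway, stood at 7122% of the 75th percentile in normal mated and 5256% in vasectomized mated, against 261% in not mated. Both mated arrays were far above the not-mated array. The gene was 27.3-fold higher in normal mated (log2 ratio 4.77) and 20.2-fold higher in vasectomized mated (4.33) than in not mated, and 0.44 higher on the log2 scale in normal mated than in vasectomized mated. With cyclic loess the ratios to not mated were 4.55 in normal mated and 3.73 in vasectomized mated, and with quantile scaling 4.82 and 3.76. How far the mated arrays lay apart thus depended on the scaling. Of all 19308 genes compared, 50 had a higher ratio in normal mated against not mated. It has 1 probe, at chr12:29359649-29359708 of the mm7 build that the file headers name.

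Slc26a9, a chloride channel and transporter of stomach and airway epithelium, was highest on the normal-mated array. It stood at 370.2% in normal mated and 73.0% in vasectomized mated, against 20.6% in not mated. Normal mated was 17.9-fold higher than not mated (4.17) and 5.08-fold higher than vasectomized mated (2.34), and vasectomized mated was 3.54-fold higher than not mated (1.82). The 3 arrays thus fell in steps, on 1 probe at chr1:131665140-131665199. Slc26a1, a sulfate and oxalate exchanger known from liver and kidney, had the same order with 161% in normal mated and 34.7% in vasectomized mated, against 5.43% in not mated. That is 29.6-fold (4.89) and 6.39-fold (2.68) higher than not mated, and 4.64-fold (2.21) higher in normal mated than in vasectomized mated. Against not mated the log2 ratio was smaller with normexp, 3.71 in normal mated and 1.96 in vasectomized mated, and with the median over probes it was 1.81 in vasectomized mated. Its second probe, at chr5:107851794-107851853, was not well above background in not mated and gave log2 ratios of at least 3.76 and at least 0.94 against it in normal and vasectomized mated, and 2.82 for normal mated against vasectomized mated, while the brightest probe is at chr5:107850907-107850966.

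Both of the other Slc26 genes past 2-fold were lower on the normal-mated array than on the vasectomized-mated array. Slc26a7, an anion carrier of stomach parietal and kidney intercalated cells, stood at 3.25% in normal mated and 16.9% in vasectomized mated, against 5.09% in not mated. It was 3.32-fold higher in vasectomized mated than in not mated (1.73) and 5.19-fold lower in normal mated than in vasectomized mated (-2.38). A second probe, bright enough only in vasectomized mated, gave bounds of 1.74 and -2.45 for the same pairs, and with normexp the ratio of normal mated to vasectomized mated was -1.59. Slc26a11, a sulfate and chloride carrier of many tissues, stood at 140.4% in normal mated and 451% in vasectomized mated, against 265% in not mated, and was 3.21-fold lower in normal mated than in vasectomized mated (-1.68).

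Among the 8 Slc26 genes compared, 3 were thus higher and 0 lower in normal mated against not mated, where 9.82% of all genes were higher, and 4 were higher and 0 lower in vasectomized mated against not mated, where 25.8% of all genes were higher. The family's median log2 ratio was -0.04 in normal mated and 1.25 in vasectomized mated against not mated, and -0.31 in normal mated against vasectomized mated. The rest stayed within 2-fold: Slc26a2, a sulfate carrier needed by cartilage, with log2 ratios between -0.05 and 0.01 over the 3 comparisons, and Slc26a3 and Slc26a6, chloride/bicarbonate exchangers of the gut and of many epithelia, with ratios against not mated of -0.40 and -0.05 in normal mated and 0.47 and 0.59 in vasectomized mated. In a tissue sampled whole, fewer cells of a type and less RNA per cell cannot be told apart. Epithelial markers differed between the 2 matings. Of 8 markers such as Epcam and Krt8, 5 were at least 2-fold higher and 0 lower in normal mated against not mated (median 1.11). In vasectomized mated against not mated 1 was higher and 2 were lower (median -0.29). Their summed level was 73990% of the 75th percentile in normal mated and 31450% in vasectomized mated, against 44630% in not mated. Of 7 markers of ciliated cells, 7 were higher in normal mated and 4 in vasectomized mated than in not mated, with summed levels of 5112% in normal mated and 3019% in vasectomized mated, against 1338% in not mated. Of 9 neutrophil markers 7 were compared, of which 6 were higher in normal mated and 7 in vasectomized mated than in not mated; summed levels were 6031% in normal mated and 8913% in vasectomized mated, against 43.28% in not mated, while Elane and Ngp were not well above background on any array. Whether a share of any of these cells has a part in the Slc26 values was not tested.

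**Figure D3:**
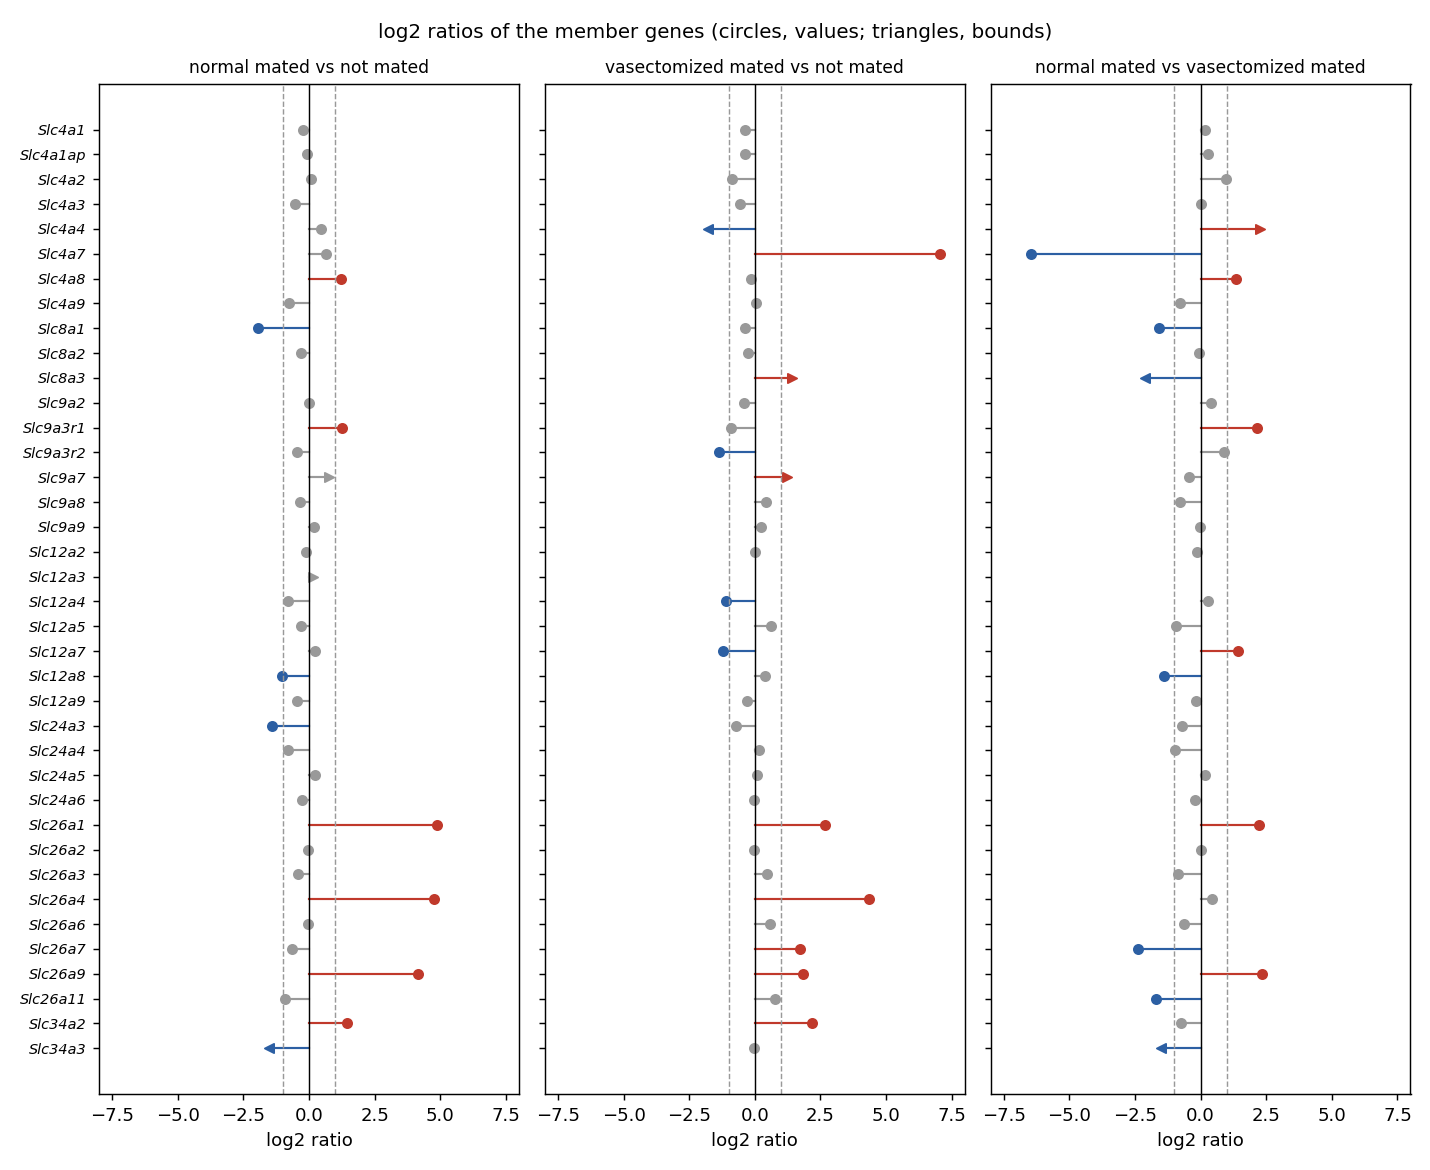
Shown by family are 38 carriers with a ratio, with 1 panel per comparison; the horizontal axis is the log2 ratio of the brightest probe, circles are values and triangles are bounds. Slc26a1, Slc26a4 and Slc26a9 lie to the right in both comparisons with not mated, and Slc4a7 lies at 7.07 in vasectomized mated against not mated and at -6.44 in normal mated against vasectomized mated.

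In the Slc4 family, 1 gene had the widest difference of all the carriers, on 1 array. Slc4a7, or NBCn1, which brings sodium and bicarbonate into cells, stood at 52.5% in normal mated and 4563% in vasectomized mated, against 33.9% in not mated. The vasectomized-mated array was alone in being high, 134-fold above not mated (7.07), and normal mated was 87.0-fold below it (-6.44), while normal mated and not mated differed by 0.63. Of all 19314 genes compared, 14 had a higher ratio in vasectomized mated against not mated. The value rests on 1 spot of 1 probe, at chr14:12552686-12552745 on mm7. The 61 pixels of that spot varied by 4.33% of their mean (SD) on the vasectomized-mated array, where spots with a mean signal above 1000 had a median of 13.6%. On the normal-mated and not-mated arrays, where the Slc4a7 spot was dimmer, its pixels varied by 20% and 24.9%. The bright Slc26a4 spot varied by 17.5% on the vasectomized-mated array. Whether the low pixel spread bears on the Slc4a7 value was not tested. Ovary markers had their highest sum on the vasectomized-mated array. Their summed level was 85.97% in normal mated and 1104% in vasectomized mated, against 40.6% in not mated. That sum rests mainly on Hsd3b1 and Cyp11a1, with signals of 2299 and 659 before scaling on the vasectomized-mated array, where Inha came next with 156. Fshr and Lhcgr, of 8 such markers, were not well above background on any array. Of the 5 compared, 4 were at least 2-fold higher in vasectomized mated than in not mated, where 25.8% of all genes were. Star was within 2-fold (0.72). Oocyte markers summed to 61.84% in normal mated and 235.2% in vasectomized mated, against 12% in not mated. Most other marker lists also had their highest sum in vasectomized mated. Macrophage markers, for example, summed to 779.1% in normal mated and 2490% in vasectomized mated, against 377.7% in not mated. The lists of epithelium, uterine epithelium, ciliated epithelium and seminal vesicle had theirs in normal mated. The part of any of these cells in the Slc4a7 value was not tested.

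Slc4a8, a sodium-driven chloride/bicarbonate exchanger, stood at 107.9% in normal mated and 41.9% in vasectomized mated, against 46.1% in not mated. It was 2.34-fold higher in normal mated than in not mated (1.23) and 2.57-fold higher than in vasectomized mated (1.36). Its second probe gave 1.60 and 0.87 for these pairs, and a probe that the array lists under another name and RefSeq assigns to Slc4a8 gave 0.63 and 2.33, so that not every probe passed 2-fold. In vasectomized mated against not mated the probes differed in sign, with -0.14 on the brightest, 0.73 on the second and -1.71 on the probe of another name. Slc4a4, or NBCe1, the electrogenic sodium bicarbonate cotransporter of pancreatic ducts and kidney, stood at 9.40% in normal mated and 6.80% in not mated and was not well above background in vasectomized mated. Normal mated exceeded vasectomized mated at least 4.79-fold (2.26) and vasectomized mated was at least 3.46-fold below not mated (-1.79). Another Slc4a4 probe gave bounds of the opposite sign, -1.46 and 0.75, and with the median over probes the ratios were 0.38 and -0.52, neither past 2-fold. With normexp the ratio of normal mated to vasectomized mated was 0.06, and vasectomized mated against not mated gave no ratio.

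The other Slc4 genes with a ratio kept within 2-fold. Slc4a2, or AE2, the widespread chloride/bicarbonate exchanger, stood at 619.5% in normal mated and 317.1% in vasectomized mated, against 585.3% in not mated, just inside 2-fold between the mated arrays (0.97). Slc4a1, or band 3 of red blood cells, had ratios of -0.22 in normal mated and -0.38 in vasectomized mated, each against not mated. Of the 4 red blood cell markers on the array 2 were measured, with medians of 0.15 and -0.10 in the same comparisons. Slc4a9 had -0.75 and 0.04, Slc4a1ap -0.09 and -0.36. Slc4a3, or AE3, known from heart and brain, had -0.53 and -0.56 on its brightest probe, but its second probe had 1.73 in vasectomized mated against not mated and -2.18 in normal mated against vasectomized mated.

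Of the 8 genes named Slc9 that could be compared, 1 was at least 2-fold higher and 0 were lower in normal mated against not mated (9.82% and 13.2% of all genes). In vasectomized mated against not mated 1 was higher and 2 were lower (25.8% and 16.5% of all genes), and in normal mated against vasectomized mated 2 were higher and 0 lower (14.7% and 28% of all genes). Slc9a7, an exchanger of the Golgi and endosomes, stood at 2.58% in normal mated and 3.54% in vasectomized mated and was not well above background in not mated, so that vasectomized mated was at least 2.34-fold higher (1.23). A probe listed under another name and assigned to Slc9a7 by RefSeq gave -1.28 for that pair, the opposite sign.

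The NHERF scaffolds, which tether exchangers and CFTR to ezrin below the apical membrane, also differed. Slc9a3r1 stood at 674.2% in normal mated and 152.7% in vasectomized mated, against 285.7% in not mated. It was 2.36-fold higher in normal mated than in not mated (1.24) and 4.42-fold higher than in vasectomized mated (2.14). Slc9a3r2 stood at 277% in normal mated and 148.1% in vasectomized mated, against 379.7% in not mated, and was 2.56-fold lower in vasectomized mated than in not mated (-1.36). Slc9a3, the exchanger for which both are named, was not well above background on any array. Slc9a2 of apical membranes (-0.40 to 0.41), Slc9a8 of the Golgi (-0.77 to 0.44) and Slc9a9 of endosomes (-0.04 to 0.23) stayed within 2-fold in all 3 comparisons on their brightest probe. A dimmer Slc9a8 probe gave bounds of -1.63 in vasectomized mated against not mated and 1.71 in normal mated against vasectomized mated, each opposite in sign to the brightest probe.

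Of the cation-chloride cotransporters, 0 were at least 2-fold higher on either mated array than on the not-mated array, where 9.82% of all genes were in normal mated and 25.8% in vasectomized mated. In normal mated 1 of 8 compared was lower and in vasectomized mated 2 of 7 were, where 13.2% and 16.5% of all genes were lower. Slc12a2, or NKCC1, which loads secretory cells with chloride from the blood side, was the steadiest, with 275.9% in normal mated and 300.5% in vasectomized mated, against 296.9% in not mated. Slc12a7, or KCC4, a potassium-chloride cotransporter, stood at 391.4% in normal mated and 145.3% in vasectomized mated, against 333.4% in not mated. It was 2.30-fold lower in vasectomized mated than in not mated (-1.20) and 2.69-fold higher in normal mated than in vasectomized mated (1.43). Slc12a4, or KCC1, which serves volume control in most cells, stood at 143.8% in normal mated and 118.4% in vasectomized mated, against 251.5% in not mated, with vasectomized mated 2.12-fold lower than not mated (-1.09). That gene fell just within 2-fold when arrays were scaled to their median (-0.9955). Slc12a8, a more distant member of the family, stood at 26.9% in normal mated and 71.2% in vasectomized mated, against 54.7% in not mated. Normal mated was 2.65-fold lower than vasectomized mated (-1.40) and 2.04-fold lower than not mated, a difference that fell within 2-fold in 4 of 6 settings (-1.03 to -0.82). Slc12a5, a potassium-chloride cotransporter of neurons, and Slc12a9, a member of the family with no settled substrate, stayed within 2-fold, with ratios against not mated of -0.32 and -0.47 in normal mated and 0.63 and -0.31 in vasectomized mated. Slc12a3, the thiazide-sensitive cotransporter of the kidney, was well above background in normal mated only.

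Of the calcium extruders, Slc8a1 and Slc24a3 were lower after mating with normal males. Slc8a1, or NCX1, the sodium/calcium exchanger of heart and smooth muscle, stood at 7.41% in normal mated and 22.4% in vasectomized mated, against 28.8% in not mated. Normal mated was 3.89-fold lower than not mated (-1.96) and 3.02-fold lower than vasectomized mated (-1.59). With normexp the ratio to not mated was smaller, at -1.23. Its 3 measured probes lay between -1.96 and -1.56 against not mated, so each was past 2-fold, and between -1.70 and -0.69 against vasectomized mated, where 1 was not. Slc24a3, or NCKX3, a sodium/calcium-potassium exchanger, stood at 155.7% in normal mated and 253.4% in vasectomized mated, against 414.2% in not mated, and was 2.66-fold lower in normal mated than in not mated (-1.41). Slc8a3, or NCX3, of brain and skeletal muscle, was well above background in vasectomized mated only, at 3.99%, at least 2.64-fold above not mated (1.40), with normal mated at least 4.29-fold below it (-2.10), or -1.32 on the log2 scale with normexp. Slc8a2 had ratios of -0.29 in normal mated and -0.24 in vasectomized mated against not mated. Slc24a4, Slc24a5 (a pigment-cell exchanger) and Slc24a6 (the mitochondrial exchanger, now named Slc8b1) stayed within 2-fold, at -0.80, 0.24 and -0.27 in normal mated and 0.17, 0.08 and -0.04 in vasectomized mated, each against not mated. Of 6 smooth muscle markers, 2 were at least 2-fold lower and 0 higher in normal mated against not mated (median -0.92). Of all genes, 13.2% were lower and 9.82% higher in that comparison. In vasectomized mated against not mated 2 markers were lower and 2 higher (median -0.69), where 16.5% of all genes were lower and 25.8% higher. Summed levels were 33680% in normal mated and 119100% in vasectomized mated, against 44440% in not mated. The sum in vasectomized mated rests mainly on Tagln, which had a log2 ratio of 2.28 there against not mated. Endothelial markers were lower than in not mated for 6 of 6 in normal mated (median -1.88) and for 4 of 6, with 1 higher, in vasectomized mated (median -1.64). Of 7 uterine stroma markers, 4 were lower and 0 higher in normal mated (median -1.19), and 0 were lower and 1 higher in vasectomized mated (median 0.20). The part of these cells in the Slc8a1 and Slc24a3 values was not tested.

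The phosphate carriers went in different directions. Slc34a2, or NaPi-IIb, the sodium-phosphate cotransporter of gut, lung and other epithelia, stood at 56.3% in normal mated and 93.4% in vasectomized mated, against 20.5% in not mated. It was 2.75-fold higher in normal mated (1.46) and 4.55-fold higher in vasectomized mated (2.19) than in not mated. Its second probe gave 2.39 and 1.06, so both probes were past 2-fold in both matings, but between the mated arrays the probes differed in sign, with -0.73 on the brightest and 1.33 on the other. Slc34a3, or NaPi-IIc, of the kidney, stood at 2.62% in vasectomized mated and 2.71% in not mated and was not well above background in normal mated, which was at least 2.92-fold below not mated (-1.54) and at least 2.82-fold below vasectomized mated (-1.50). With normexp background correction the ratio to not mated was -0.10.

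**Figure D4:**
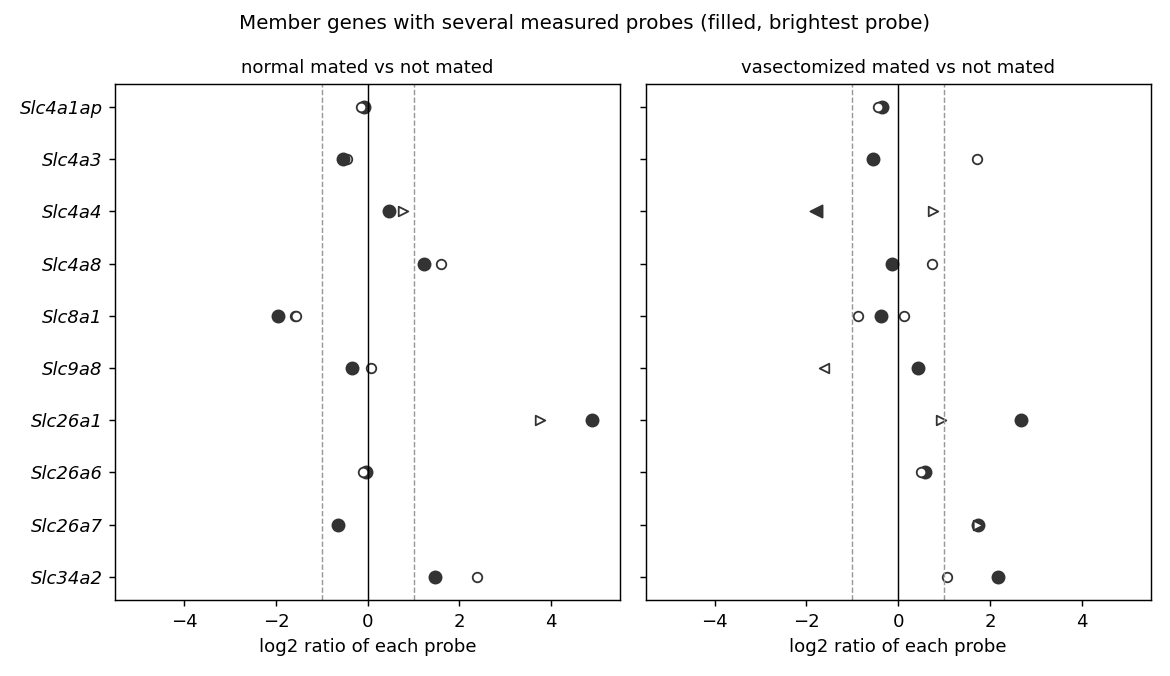
Shown are 10 carriers with more than 1 measured probe, with normal mated against not mated on the left and vasectomized mated against not mated on the right; each point is the log2 ratio of 1 probe, filled for the brightest, with triangles for bounds. The probes of Slc26a1, Slc34a2 and, on the left, Slc8a1 lie on the same side of 0, and those of Slc4a3, Slc4a4, Slc4a8, Slc8a1 and Slc9a8 lie on both sides on the right.

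Genes that work with the carriers were counted from lists chosen for these pathways. Against not mated, 9.82% of all genes were past 2-fold upward and 13.2% downward in normal mated, and 25.8% higher and 16.5% lower in vasectomized mated. Of 13 measured bicarbonate partners (carbonic anhydrases, CFTR and others), 5 were at least 2-fold higher and 1 lower in normal mated against not mated, and 5 higher and 4 lower in vasectomized mated. Cftr, the chloride and bicarbonate channel, was 4.21-fold higher in normal mated (2.08) and 2.43-fold higher in vasectomized mated (1.28) than in not mated. Car9, a membrane carbonic anhydrase, was 21.2-fold (4.41) and 4.19-fold (2.07) higher in the same comparisons. Car4, another membrane carbonic anhydrase, went the other way: it was well above background in not mated only, at least 48.3-fold lower in normal mated (-5.60) and at least 22.9-fold lower in vasectomized mated (-4.51).

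Of 11 measured genes of the WNK and SPAK kinase system, which senses chloride and switches Slc12 cotransporters, 0 were higher and 1 was lower in normal mated against not mated (9.82% and 13.2% of all genes), and 1 was higher and 5 were lower in vasectomized mated (25.8% and 16.5% of all genes). Of 9 partners of the sodium/proton exchangers, 1 was higher and 1 lower in normal mated and 2 higher and 2 lower in vasectomized mated, and the scaffold gene Pdzd3 was at least 9.06-fold (3.18) and at least 19.8-fold (4.30) higher than in not mated. Of 11 genes of sodium and calcium pumps and calcium handling, 1 was higher and 4 lower in normal mated, and 1 higher and 3 lower in vasectomized mated. The calcium entry channel Trpv6 was 10.8-fold higher in normal mated (3.43) and 4.54-fold higher in vasectomized mated (2.18) than in not mated, and the plasma membrane calcium pump Atp2b2 was 5.21-fold lower in normal mated (-2.38), with a log2 ratio of -3.39 in vasectomized mated. Of 10 phosphate handling genes, 2 were higher and 1 lower in normal mated and 2 higher and 3 lower in vasectomized mated. Alpl, a phosphatase that frees phosphate outside cells, was 9.56-fold higher in normal mated (3.26) and 7.60-fold higher in vasectomized mated (2.93), Stc2, which encodes stanniocalcin 2, was 7.48-fold (2.90) and 2.62-fold (1.39) higher, and Pth1r, the parathyroid hormone receptor, was 4.87-fold lower in normal mated (-2.28), with -0.97 in vasectomized mated.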

How the data were processed

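The deposited intensity values are Agilent Feature Extraction processed signals on a linear scale, with background removed within each array and no scaling across arrays, per the file headers. These name software version 10.5.1.1, whereas version 9.5.3 stands in the submitters' processing notes. The 3 arrays share 1 slide scan in their headers. Here log2 values were computed from the deposited intensities, minus each array's 75th percentile over the 43379 non-control spots, and the spots of a probe were averaged. A gene is its brightest probe that was well above background on at least 1 array. A probe below that on 1 of 2 arrays was bounded at the lowest signal well above background on that array, or at its own if higher. Between spots of probes printed several times, the median SD was 0.0527, 0.0637 and 0.0573 log2 units on the normal-mated, vasectomized-mated and not-mated arrays, which covers spotting error only. Each member past 2-fold is given in full, and list genes were named when at least 4-fold different in normal mated against not mated, at most 3 per list. Members keep the file's gene name; other probes were renamed through RefSeq (GRCm38.p6), 22951 by accession. Members and lists were chosen with earlier results of these data known. The counting was tested on simulated data. The software was R 4.3.3 (limma 3.58.1, data.table version 1.17.8) and Python 3.11.15 (pandas 2.3.3, numpy 2.4.6, matplotlib 3.10.9). Alternatives were normexp background correction, quantile, cyclic loess and median scaling, the filter on dim probes, spot flags, the median over probes, and transporters only. Values of a few genes are not reported here; they stay in the counts and medians.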

Additional observations from a re-analysis of the deposited data

How the results depend on the processing

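No paired analysis was possible because each group was 1 array, and for the same reason no replicate could be left out. Of 9 alternatives, not each could be computed for every gene; among the ratios obtained, none that was past 2-fold changed sign. Without a filter on dim probes, where probes at background take part, 11 carriers were higher in normal mated against not mated and 12 lower in normal mated against vasectomized mated, and with normexp 2 were lower in normal mated against not mated. The median ratio of the carriers in normal mated against not mated was 0.0373 with normexp, -0.0253 with cyclic loess, 0.0668 with median scaling and -0.22 without the filter. In vasectomized mated against not mated it was 0.47, 0.0804 and 0.23 with normexp, median scaling and no filter. In normal mated against vasectomized mated it was -0.46 with normexp, 0.0326 with quantile, 0.0226 with cyclic loess, 0.0269 with median scaling and -0.23 without the filter. These medians have no stable sign. The median of all genes itself moved by 0.20 with median scaling in normal mated against not mated, by 0.31 with normexp and -0.12 with quantile in vasectomized mated against not mated, and by -0.23, 0.18, 0.20 and 0.12 with normexp, quantile, cyclic loess and median scaling in normal mated against vasectomized mated; the cause was not tested. Over 6 settings of scaling and probe choice, 8 of 10, 11 of 13 and 13 of 14 carriers stayed past 2-fold throughout in normal mated against not mated, vasectomized mated against not mated, and normal mated against vasectomized mated. Neither these counts nor those without the filter and with normexp were made for all genes, so they do not set the carriers apart. Without the filter, vasectomized mated against not mated was -4.03 for Slc4a4 and 2.33 for Slc8a3, and normal mated against vasectomized mated was 4.49 for Slc4a4, where bounds are given in the report. The exceptions to staying past 2-fold were Slc12a8 and Slc34a3, then Slc12a4 and Slc4a4 (no ratio with normexp), then Slc4a4. Signals near background limit the dimmest genes, such as Slc8a3, Slc9a7 and Slc34a3, to bounds.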

Other observations

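Some genes of these families are listed on the array under other names and so lie outside the 51. RefSeq assigns 1 such probe to Slc26a10 and 1 to Slc9b2, a sodium/proton exchanger. Slc26a10 had log2 ratios of -1.80 in normal mated and 0.33 in vasectomized mated against not mated, and of -2.13 in normal mated against vasectomized mated. Slc9b2 had -0.77, 1.55 and -2.31 for the same pairs. Slc4a5, a sodium bicarbonate cotransporter, was well above background on 1 of its 2 probes in normal mated, with a log2 bound of 0.28 against not mated, and the probes of Slc9b1 were not well above background on any array.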
